A study of Mus musculus with 8 samples.

Results

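The metabotropic glutamate receptor genes described here are *Grm2*, *Grm3*, *Grm4*, *Grm5*, *Grm7* and *Grm8*, read from the primary motor cortex (M1) of mice after *Fezf2 shRNA*. They were chosen by gene symbol, as members of 1 receptor family, and are 6 of the 38031 genes in the count table. All 6 passed the filter on low counts and are among the 9959 genes tested. The main outcome was that *Grm7* and *Grm3* were higher after *Fezf2 shRNA*, by 48.2% and 22.4%, while *Grm2*, *Grm4*, *Grm5* and *Grm8* did not pass the test. The counts cover introns as well as exons. For *Grm7* the rise was not seen over the end of the last exon of its widest transcript. With gene length taken into the fit, neither *Grm7* nor *Grm3* passed.

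The samples were M1 tissue from male, wild-type Swiss Webster mice aged P49–P53. At P21–P25 each mouse had received a lentivirus in M1 carrying an mCherry reporter with either *Fezf2 shRNA* or a *non-silencing shRNA* as the control, so that both groups carried a vector and an shRNA. The rat *Synapsin I* promoter, which is active in neurons, drove the reporter and the shRNA, and the tissue was cut out by its mCherry signal with all cortical layers in it, transduced or not. Total RNA gave 8 libraries, 4 per treatment, and since nothing in the labels ties a library to its own animal, p-values measure the spread between these samples.

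Metabotropic glutamate receptors are G protein-coupled receptors that answer glutamate slowly and tune transmission at synapses, where ionotropic receptors carry the fast current. Group I receptors, here *Grm5*, act through Gq and phospholipase C and sit mostly on the postsynaptic side. Group II (*Grm2*, *Grm3*) and group III (*Grm4*, *Grm7*, *Grm8*) receptors act through Gi/o, lower adenylyl cyclase activity and restrain glutamate release from the terminal, and *Grm3* is also made by astrocytes. Further genes of the family were not analysed here.

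Depth was alike in both treatments, with 54684016 to 58003814 counted reads per control library and 55932510 to 56969290 per *Fezf2 shRNA* library. *Fezf2*, the targeted transcription factor, had 723 ± 35.4 normalized counts (SD, n = 4) in controls and 591 ± 22.1 in *Fezf2 shRNA* libraries, with every knockdown library (568 to 621) below every control (688 to 767). Its log2 fold change was −0.29 (SE 0.0781), which did not pass edgeR's quasi-likelihood test (Benjamini-Hochberg adjusted p = 0.0824). It passed DESeq2's Wald test without and with its prior (adjusted p = 0.0256 in both), which called 94 and 89 of the 9959 genes tested as decreased. Neuronal markers had a median log2 fold change of 0.00, and none of the markers of neurons, oligodendrocytes, oligodendrocyte precursors, astrocytes, microglia, endothelium, striatal projection neurons or deep-layer cortical neurons passed the test. The medians were −0.53 for the 6 oligodendrocyte markers, −0.20 for precursors, −0.14 for astrocytes, 0.03 for microglia, 0.06 for the 1 endothelial marker tested, −0.02 for 3 striatal markers and −0.16 for deep-layer neurons. The summed level of each list overlapped between treatments, and no marker was at 0. Of all genes tested, 1.96% passed as increased and 0.131% as decreased.

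The shRNA was compared with the transcripts of *Fezf2* and the receptor genes to show how much sequence they share. The shRNA's sense strand is 19 bases long and matched *Fezf2* over its whole length, while the longest shared run was 10 bases in *Grm5*, 9 in *Grm3*, 8 in *Grm8* and 7 in *Grm2*, *Grm4* and *Grm7*. The windows below are aligned to the shRNA base by base, 5′ to 3′, with the shared run in capitals, and are shown for the target, for *Grm3* and *Grm7*, which passed the test, and for *Grm5*, which had the longest run among the receptors.
shRNA sense strand: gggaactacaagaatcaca
Fezf2: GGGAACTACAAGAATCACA
Grm5: caaaataACAAGAATCAac
Grm3: actatgaACAAGAATCcaa
Grm7: GGGAACTcagctatgtttt
The *Grm5* window lies in a transcript with a retained intron.

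*Grm5* encodes the group I receptor mGluR5 and is spread over 528326 bases (chr7:87602544-88130869, plus strand, GRCm38). Its normalized counts were 14005, 14635, 15075 and 12667 in control libraries 1 to 4, and 20816, 16977, 17502 and 16334 in *Fezf2 shRNA* libraries 1 to 4. All 4 knockdown libraries were above all controls, with library 1 well above the others. The means were 17907 ± 1997 and 14096 ± 1049 (SD, n = 4), and the log2 fold change of 0.35 (SE 0.0900, 95% interval 0.17 to 0.52) missed the threshold in edgeR (adjusted p = 0.0759), which required an adjusted p of at most 0.05 and a log2 fold change of at least 0.2 in size. DESeq2 without its prior placed it past that threshold (adjusted p = 0.0045), as it did 6.61% of all genes tested as increased (6.48% with the prior). The level of *Grm5* carries a further limit. The transcript counted held 1736 to 5790 more reads per library than ENSMUST00000125009, which contains it in the annotation used here, so the counts of these transcripts are not nested as annotated. Which bases were counted for each was not tested. ENSMUST00000125009 itself had 13729 ± 971 normalized counts after *Fezf2 shRNA* and 11602 ± 514 in controls, a log2 ratio of 0.24.

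*Grm2* encodes the group II receptor mGluR2, an autoreceptor of glutamatergic terminals, and is the shortest member at 12964 bases (chr9:106643117-106656080, minus strand). It had 1994 ± 239 normalized counts in controls (1798 to 2290) and 1939 ± 331 in *Fezf2 shRNA* libraries (1569 to 2309). The treatments overlapped throughout, and the log2 fold change was −0.04 (SE 0.124, 95% interval −0.28 to 0.20, edgeR adjusted p = 0.878).

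*Grm3* encodes mGluR3, the other group II receptor, over 239630 bases (chr5:9485541-9725170, minus strand). Control libraries 1 to 4 had 11556, 11791, 10964 and 11227 normalized counts, and *Fezf2 shRNA* libraries 1 to 4 had 13522, 13765, 13923 and 14527. Each knockdown library was above each control. *Grm3* rose from 11385 ± 364 to 13934 ± 428 (SD, n = 4), a log2 fold change of 0.29 (SE 0.0576, edgeR adjusted p = 0.0329). The call ended with library totals (log2 fold change 0.26, edgeR adjusted p = 0.0545), a filter of 1 CPM (0.29, 0.0570) or no filter (0.30, 0.0747). The summed astrocyte markers ran from 27509 to 34107 after *Fezf2 shRNA* and from 29938 to 37219 in controls. These markers have a median span of 11.4 kb, far below that of *Grm3*, and a part of astrocyte number in the *Grm3* counts was not tested. In bulk tissue, a change in the number of cells of a type and a change in RNA per cell cannot be told apart.

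*Grm4* encodes mGluR4, a group III receptor, over 87508 bases (chr17:27425899-27513406, minus strand). It had the fewest counts of the family, with 870 ± 73.7 in controls and 940 ± 90.5 in *Fezf2 shRNA* libraries. The ranges of 773 to 951 and 873 to 1074 overlapped, and the log2 fold change was 0.11 (SE 0.0935, edgeR adjusted p = 0.517).

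*Grm7* encodes mGluR7, a group III receptor of the presynaptic active zone, and is the longest member at 920487 bases (chr6:110645581-111566067, plus strand). Control libraries 1 to 4 had 15642, 17769, 17403 and 14506 normalized counts. *Fezf2 shRNA* libraries 1 to 4 had 25322, 23232, 25213 and 23070. The lowest knockdown library was thus well above the highest control. *Grm7* rose from 16330 ± 1530 to 24209 ± 1225 (SD, n = 4), a log2 fold change of 0.57 (SE 0.0806, 95% interval 0.41 to 0.73, edgeR adjusted p = 0.0184). Of all genes tested, 68 had a larger fold change.

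*Grm8* encodes mGluR8, a further group III receptor, and is almost as long, at 850584 bases (chr6:27275612-28126195, minus strand). Its normalized counts were 6776, 7896, 7259 and 6133 in controls and 8878, 6442, 8426 and 8103 after *Fezf2 shRNA*. Library 2 of the *Fezf2 shRNA* group was below 3 of the controls, and the other libraries of that group were above all of them. The log2 fold change was 0.18 (SE 0.105, 95% interval −0.02 to 0.39, edgeR adjusted p = 0.344).

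**Figure D1:**
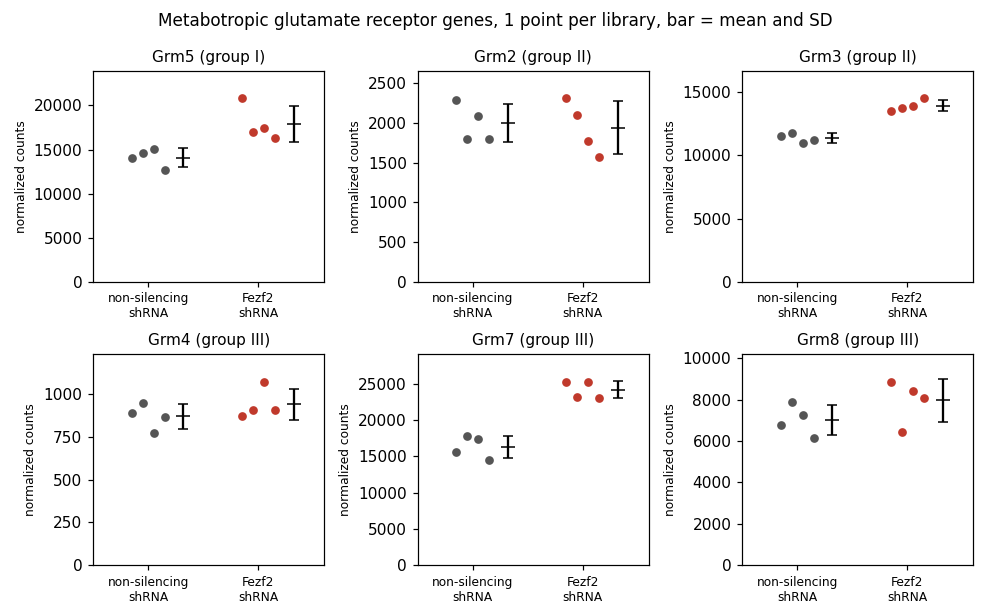
Normalized counts (y axis, from 0) of each receptor gene in the 4 non-silencing shRNA and 4 Fezf2 shRNA libraries, 1 point per library, with the mean and SD beside them. Grm3, Grm5 and Grm7 do not overlap between treatments, and the Grm7 libraries lie at 14506 to 17769 in controls and 23070 to 25322 after Fezf2 shRNA.

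In all, 2 of the 6 receptor genes increased and 0 decreased by edgeR, beside 1.96% and 0.131% of all genes tested, and an unadjusted p under 0.05 was reached by *Grm3*, *Grm5* and *Grm7*. The same 3 genes were higher in every *Fezf2 shRNA* library than in every control, which held for 7.41% of all genes tested, while the reverse held for none of the 6 and for 4.41% of all genes. Each of the 3 had an exact two-sided permutation p of 0.0286, the smallest that 4 against 4 libraries allow. The call on *Grm3* was lost without control library 1, 3 or 4 or *Fezf2 shRNA* library 1, 3 or 4, and the call on *Grm7* without control library 1 or 4 or *Fezf2 shRNA* library 1 or 3. Without 1 library the log2 fold change stayed between 0.52 and 0.61 for *Grm7* and between 0.27 and 0.31 for *Grm3*.

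Levels can be set side by side only per length. Per kb of the stretch counted, controls had 154 ± 18.4 normalized counts for *Grm2*, 47.5 ± 1.52 for *Grm3*, 26.7 ± 1.98 for *Grm5*, 17.7 ± 1.66 for *Grm7*, 9.94 ± 0.842 for *Grm4* and 8.25 ± 0.877 for *Grm8* (SD, n = 4). *Grm4* and *Grm8* overlapped between libraries, and the others kept that order without overlap. After *Fezf2 shRNA*, *Grm7* reached 26.3 and *Grm5* 33.9 per kb. The reads covered introns as well, and exons made up 36.3% of the *Grm2* stretch against 0.34% for *Grm7*, so this order is one of reads per genomic kb and not of messenger RNA, and the limit on the *Grm5* stretch applies to it.

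Summed over the 6 genes, normalized counts were 51690 ± 3358 in controls and 66893 ± 3742 after *Fezf2 shRNA*. *Grm7* made up 31.6% of that sum in controls (30.6 to 32.5) and 36.2% after *Fezf2 shRNA* (35.3 to 37.1). The share of *Grm8* was 13.5% and 11.9%, with ranges of 13.0 to 14.4 and 10.2 to 12.6. For *Grm3* and *Grm5* the shares overlapped.

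Whether the members differed from each other was tested on the log2 ratio of each pair within a library. Of 15 pairs, 5 had an exact permutation p of 0.0286, and all 5 paired *Grm7* with another member. None passed after adjustment over the 15 pairs (Benjamini-Hochberg adjusted p = 0.0857 for these 5). The value of 0.0286 is the smallest that this permutation test allows. With only 5 of 15 pairs at that value, the adjusted p cannot reach 0.05. The adjusted test therefore could not decide whether *Grm7* differed from the other members. The log2 ratio of *Grm7* over *Grm8* was 1.22 ± 0.04 in controls (1.17 to 1.26) and 1.61 ± 0.16 after *Fezf2 shRNA* (1.51 to 1.85). For these 2 group III genes of similar length the measured difference was 0.39 on the log2 scale. This difference did not pass after adjustment, which none of the 5 pairs could. Between *Grm3* and *Grm5* the response differed by −0.05 (p = 0.657, exact permutation test).

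Over the 9959 genes, fold change moved with gene length. Its median on the log2 scale was −0.12 for genes under 10 kb, −0.07 for 10 to 30 kb, 0.01 for 30 to 100 kb, 0.15 for 100 to 300 kb and 0.29 for those over 300 kb, and edgeR called an increase in 0.0464%, 0.201%, 0.802%, 5.63% and 22.1% of these classes. Within the 407 genes over 300 kb, 4.91% had a larger fold change than *Grm7*, 34.4% than *Grm5* and 76.4% than *Grm8*. Every *Fezf2 shRNA* library was above every control for 50.1% of genes over 300 kb and for 23.4% of those of 100 to 300 kb, the classes of *Grm5*, *Grm7* and *Grm8* and of *Grm3*. Among genes of 100 to 300 kb, 17.3% had a larger fold change than *Grm3*.

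**Figure D2:**
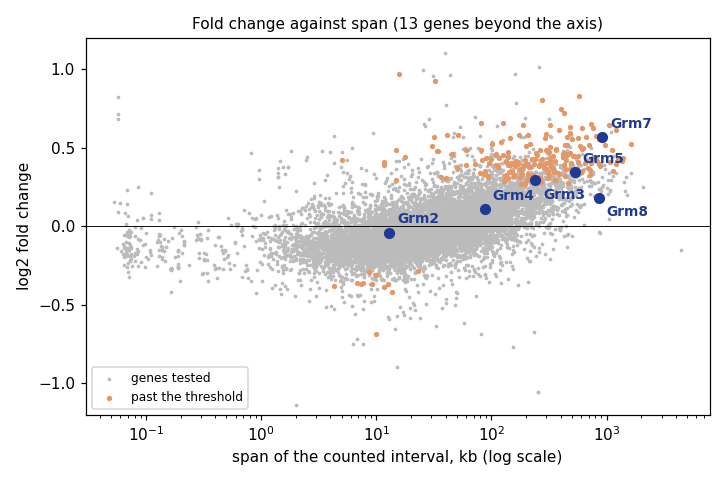
Log2 fold change (y axis) of the 9959 genes tested against the span of the counted stretch in kb (x axis, log scale), with genes past the threshold in orange and the receptor genes in blue. Fold change climbs with span, Grm7 lies near the upper edge of the long genes and Grm8 below most of them, and 13 genes lie beyond the y axis.

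Set against the median of tested genes in its own length class, *Grm7* was still higher in every *Fezf2 shRNA* library (0.07 to 0.19) than in every control (−0.20 to −0.09), a difference of 0.28 on the log2 scale (p = 0.0286, exact permutation test). *Grm3* also kept its libraries apart, at 0.02 to 0.12 against −0.13 to −0.05, a difference of 0.15. This scale was chosen after seeing the data. The share of all tested genes that stay apart on it was not computed, so these gaps have no background to be read against. *Grm5* overlapped on this scale, with a difference of 0.05 (p = 0.486, exact permutation test), and *Grm8* had −0.11 (p = 0.229, exact permutation test). *Grm4* had 0.09 and *Grm2* 0.02.

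With a smooth gene-length offset in the edgeR fit, 0 receptor genes passed the threshold, and 0 of all 9959 genes (0.0%) were called as increased. The log2 fold change of *Grm7* was then 0.24 (SE 0.0585, unadjusted p = 0.00189, adjusted p = 0.213), and that of *Grm3* 0.08 (adjusted p = 0.679). *Grm5* had 0.05, *Grm4* 0.03 and *Grm2* 0.04, while *Grm8* turned to −0.15 (adjusted p = 0.491). *Grm7* was the only receptor gene with an unadjusted p under 0.05 in that fit.

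**Figure D3:**
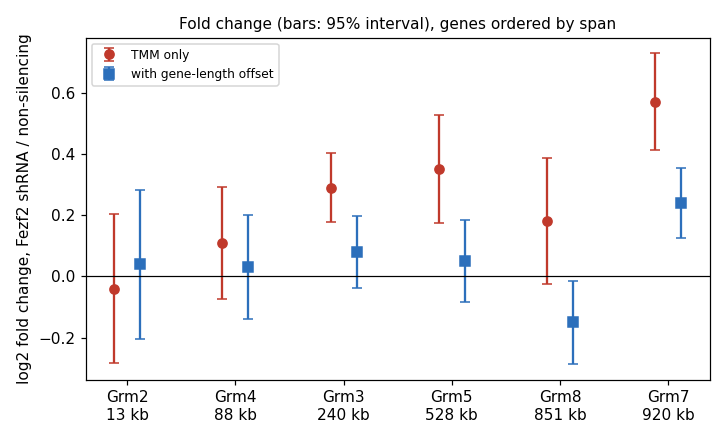
Log2 fold change of the receptor genes (y axis) ordered by span (x axis), from the edgeR fit with TMM scaling (red circles) and with a gene-length offset added (blue squares), with bars of 95% intervals. The offset brings Grm3 and Grm5 from 0.29 and 0.35 to 0.08 and 0.05, Grm7 from 0.57 to 0.24 and Grm8 from 0.18 to −0.15.

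The libraries themselves differed in the balance of long over short genes. The median log2 ratio to the mean library in genes over 300 kb, less that in genes under 10 kb, was −0.18, −0.10, −0.19 and −0.33 in control libraries 1 to 4 and 0.27, 0.03, 0.25 and 0.26 in *Fezf2 shRNA* libraries 1 to 4. *Grm8* was at −0.21 in *Fezf2 shRNA* library 2, the library of that group with the smallest balance, and between 0.12 and 0.26 in the other 3. *Grm7* in that same library stood at 0.23, close to the 0.22 of library 4. The part of the length balance in these results was not tested beyond the offset and the length classes.

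**Figure D4:**
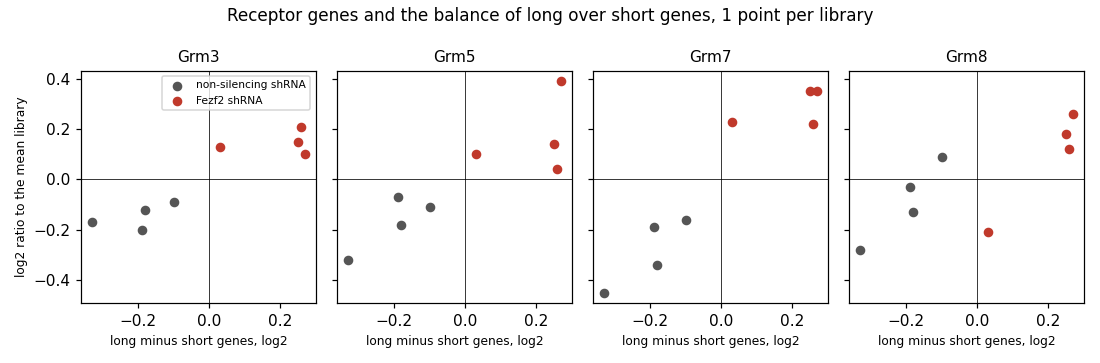
Log2 ratio of Grm3, Grm5, Grm7 and Grm8 to the mean library (y axis) against the balance of genes over 300 kb and under 10 kb in the same library (x axis, log2), 1 point per library, controls grey and Fezf2 shRNA red. All 4 controls lie left of 0 and all 4 Fezf2 shRNA libraries right of it, and the Fezf2 shRNA library nearest 0 is the lowest of its group for Grm8 (−0.21) but not for Grm7 (0.23).

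*Grm7* was the member in which exon and intron reads could be set apart, since ENSMUST00000172951 runs 1163 bases past the end of the transcript counted (chr6:111566068-111567230), all of them in its last exon. By subtraction this stretch had 367, 434, 429 and 348 normalized counts in control libraries 1 to 4 and 438, 377, 436 and 346 in *Fezf2 shRNA* libraries 1 to 4. The treatments overlapped almost fully, at 394 ± 43.2 and 399 ± 45.3 (SD, n = 4), a log2 ratio of 0.02 (p = 0.714, exact permutation test).

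The 68977 bases next to it (chr6:111497091-111566067), of which 0.744% are exonic, had 1408 ± 89.0 normalized counts in controls and 2022 ± 182 after *Fezf2 shRNA*, a log2 ratio of 0.52. The log2 ratio of the whole counted stretch to the exon end was 5.37 ± 0.0311 in controls (5.34 to 5.41) and 5.93 ± 0.0970 after *Fezf2 shRNA* (5.85 to 6.06). The difference of 0.55 had the smallest p possible (0.0286, exact permutation test). The rise of *Grm7* was thus measured over its intron-rich stretch. No such rise was detectable over the end of the last exon of ENSMUST00000172951, which does not stand for all exons of *Grm7*. Mixed stretches further inside the gene, which overlap each other, had positive log2 ratios, with overlap between treatments. They were 0.28 over 4219 bases (38.1% exonic, p = 0.171) and 0.40 over 6541 bases (27.7% exonic, p = 0.0571, exact permutation tests).

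No other member had a stretch that was largely exonic, so mixed and intronic stretches are given for them. In *Grm5*, ENSMUST00000125009 exceeds ENSMUST00000155358 by 21301 bases as annotated, 19.2% of them exonic. The difference of their counts was 1906 ± 192 normalized counts in controls and 1738 ± 92.5 after *Fezf2 shRNA*, a log2 ratio of −0.13 (p = 0.171, exact permutation test). The transcript counted for *Grm5* held 3772 to 7540 more reads per library than ENSMUST00000155358, which also contains it as annotated. Which bases this difference covers is therefore not known. In *Grm8*, the 8843 bases of ENSMUST00000115323 outside the transcript counted, 36.7% exonic, had a log2 ratio of −0.24 (p = 0.0857, exact permutation test). The 371983 bases of *Grm8* toward its 5′ end (ENSMUST00000131897) had 0.26 and the remaining 487444 bases 0.09, with overlap in both. *Grm2* and *Grm3* each had 1 transcript in the count table.

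Genes that share ground with the members added little. Reads were counted without regard to strand, so *Gm20387*, an antisense gene over the 5′ end of *Grm7*, cannot be told apart from it, and its count was 1.42% of that of *Grm7*. The other overlapping genes came to less than 0.1% of a receptor gene's count each.

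The sequence before the start site is shown for *Grm7* and *Grm3*, which rose, and for *Grm2*, which did not, from RefSeq on GRCm38.p6. Each window holds the 250 bases before a RefSeq start, read 5′ to 3′ on the gene's strand, with GC boxes (GGGCGG, searched on both strands) in capitals. The windows are chr6:110645348-110645597 (plus strand) for *Grm7*, chr5:9725353-9725602 (minus strand) for *Grm3* and chr9:106656110-106656359 (minus strand) for *Grm2*.
Grm7: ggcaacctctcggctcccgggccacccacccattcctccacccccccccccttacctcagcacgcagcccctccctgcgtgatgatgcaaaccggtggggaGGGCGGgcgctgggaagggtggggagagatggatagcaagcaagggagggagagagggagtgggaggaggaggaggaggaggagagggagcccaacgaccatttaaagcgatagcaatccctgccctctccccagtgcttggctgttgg
Grm3: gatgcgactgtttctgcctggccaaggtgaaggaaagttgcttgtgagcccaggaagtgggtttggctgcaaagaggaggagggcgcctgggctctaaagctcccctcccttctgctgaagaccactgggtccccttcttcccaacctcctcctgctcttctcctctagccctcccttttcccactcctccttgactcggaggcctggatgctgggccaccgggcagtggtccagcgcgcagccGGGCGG
Grm2: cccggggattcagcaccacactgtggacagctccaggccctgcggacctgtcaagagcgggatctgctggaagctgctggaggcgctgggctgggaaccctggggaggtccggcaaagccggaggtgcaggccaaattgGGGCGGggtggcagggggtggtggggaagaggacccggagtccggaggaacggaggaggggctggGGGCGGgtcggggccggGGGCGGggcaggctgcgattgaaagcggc
*Grm2* had 3 GC boxes, and *Grm3* and *Grm7* had 1 each. Of 32851 such windows in the table, 32.7% held a GC box. The TATA box (TATAAA, in 12.4% of windows), the cAMP response element (TGACGTCA, 1.55%) and the E-box (CACGTG, 6.02%) had no match in the windows of these 3 genes, and CpG pairs numbered 16 in *Grm2*, 8 in *Grm3* and 9 in *Grm7* against a median of 6. *Grm7* had another window, chr6:110645262-110645511, with 1 GC box and 8 CpG pairs. The *Grm7* window shown runs past 110645581, the first base of the transcript counted. *Grm8* had 3 windows in the table, and *Grm4* and *Grm5* had none.

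The genes with the level most like that of each member were found by Pearson's r of log2 CPM over the 8 libraries, which share depth, treatment and the length balance. For *Grm7* they were *Smyd3* (r = 0.996), *Csmd1* (0.994) and *Dlgap2* (0.994). *Grm3* was closest to *Vwc2* (0.982), *Cntnap5a* (0.970) and *Sestd1* (0.966). *Grm5* was closest to *Gucy1a2* (0.989), *Lrfn5* (0.988) and *Il1rapl1* (0.988), and *Grm8* to *Lrp1b* (0.965), *Cdh2* (0.949) and *Lrfn2* (0.944). For *Grm4* they were *Ino80d* (0.973), *Gbf1* (0.962) and *Gm20659* (0.953), and for *Grm2* *Nsmce3* (0.961), *Yme1l1* (0.932) and *Psd* (0.928).

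Genes that act with these receptors were read from 6 lists. Of 53 genes listed, 51 were in the count table and 48 were tested. Of these, 3 increased and 0 decreased, beside 1.96% and 0.131% of all genes tested. The 3 span 379 to 623 kb, and 22.1% of all tested genes over 300 kb were called as increased. The 48 genes' median log2 fold change was 0.08, against −0.03 over the 9959 genes. With the length offset the median was −0.01, and none of the 3 passed.

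In the group I pathway, *Plcb1*, the phospholipase C that Gq activates, was the 1 of 10 genes that passed, read against the 1.96% of all genes and the 22.1% of genes over 300 kb called as increased. It rose from 27908 ± 2100 to 35604 ± 1482 normalized counts, a log2 fold change of 0.35 (SE 0.0740, edgeR adjusted p = 0.0390), and spans 613 kb. The median of the 10 was 0.13. None of the 6 scaffold genes tested, which include the Homer and Shank proteins that tie mGluR5 to the postsynaptic density, passed, and their median was 0.25. With the length offset this median was 0.18, and those of the other partner lists lay between −0.09 and 0.02. *Shank2* had the smallest p of that list, with a log2 fold change of 0.31 (adjusted p = 0.0656).

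In the group II and III pathway, 1 of 14 genes passed, and the median was 0.06. The same shares of 1.96% and 22.1% stand beside this count. *Adcy2*, an adenylyl cyclase, rose from 10839 ± 841 to 13717 ± 532 normalized counts, a log2 fold change of 0.34 (SE 0.0697, edgeR adjusted p = 0.0357). Among 6 proteins that bind these receptors, *Grip1*, a scaffold with PDZ domains, rose from 6151 ± 412 to 8680 ± 305, a log2 fold change of 0.50 (SE 0.0621, edgeR adjusted p = 0.0120). The median of these 6 was −0.09. *Grip1* and *Adcy2* span 623 and 379 kb, and with the length offset the log2 fold changes were 0.19 for *Grip1*, 0.08 for *Adcy2* and 0.05 for *Plcb1*.

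Of all genes tested, 1.96% were called as increased and 0.131% as decreased, so lists this short would seldom hold a call. Neither the genes of receptor desensitization nor those of glutamate supply and removal gave one. The former had 5 tested genes with a median of −0.14, led by the receptor kinase gene *Grk6* (log2 fold change −0.17, edgeR adjusted p = 0.249). The latter had 7 with a median of −0.02, led by the vesicular transporter gene *Slc17a6* (−0.46, SE 0.281, edgeR adjusted p = 0.374).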

How the data were processed

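RNA from M1 tissue was measured by RNA-seq in 8 libraries, 4 per treatment. The authors aligned reads with TopHat2 (2.1.1) to mm10 and counted them per transcript with bedtools (2.26.0), and they deposited raw counts. The deposited counts cover the whole interval of each transcript, introns included, and are not split by strand, so long introns weigh heavily. A second deposited table holds the authors' base mean, a signal scaled over all libraries, with the authors' own comparison (fold changes and p-values), which was not used.

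Transcripts were named from GENCODE M21 (91320 of 94647 matched, and unmatched ones held 1.82% of counts), and each gene was read from its transcript with the lowest Ensembl number. Genes above 8 CPM in 4 or more libraries were tested with edgeR (4.0.16, TMM, quasi-likelihood) and Benjamini-Hochberg adjustment. A gene passed with an adjusted p up to 0.05 and a log2 fold change of 0.2 or more in size. Single values were tested by exact two-sided permutation. Normalized counts are counts scaled by TMM library size. The SE of an edgeR fold change is its size over the square root of the test's F value. The 95% intervals reach 1.96 SE to each side, from the normal distribution. They are narrower than intervals from the quasi-likelihood test itself would be. The gene-length offset was a loess of each library's log2 ratio on log span. DESeq2 (1.42.0), other filters and scalings, a replicate block and leaving out each library were alternatives. Values relative to the gene's length class, and an overhang of up to 10 bases between nested transcripts, were chosen after seeing the data. The fits were tested on simulated data. The common biological coefficient of variation was 11.7%.

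Genes named are the 6 receptors, *Fezf2*, partner genes past the threshold or with the smallest p of their list, and the 3 genes most correlated with each receptor. Members and lists were chosen with earlier results of these data known. *Adrbk1* and *Adrbk2* were not found by those symbols, and *Plcb3*, *Homer3* and *Slc17a8* fell under the filter.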

Additional observations from a re-analysis of the deposited data

How the results depend on the processing

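Of the 2 receptor genes past the threshold, *Grm7* alone passed under library totals, a filter of 1 CPM, no filter or a replicate block, where *Grm3* kept a log2 fold change of 0.26 to 0.30 (edgeR adjusted p = 0.0545, 0.0570, 0.0747 and 0.0748, which makes 1 receptor gene in each). There were 0 under a gene-length offset or under both block and offset, and 0 to 2 without 1 library. DESeq2 called 3 with or without its prior. The 208 genes past the threshold overall became 136 with library totals, 84 with the lower filter, 103 with no filter, 752 and 734 by DESeq2 without and with its prior, 90 with the replicate block, 1 with the offset, 2 with both, and 0 to 368 without 1 library. The 3 partner genes became 1 with the lower filter, no filter or the block, 6 by DESeq2, 0 with the offset or with both, and 0 to 6 without 1 library. With 1 library left out, the intron against exon difference of *Grm7* was 0.51 to 0.58 and the smallest possible permutation p is 0.0571. The labels give no pairing of the samples, and a check did not settle whether the replicate numbers do. Same-numbered deviations correlated at 0.307, 0.0931, −0.133 and 0.167, and 4 of 8 libraries correlated best with their own number.

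The log2 fold change of *Grm2* turned to 0.04 under the offset and under block and offset, and without 1 library it ran from −0.13 to 0.05, with 0.03 without control 1, 0.00 without *Fezf2 shRNA* 3 and 0.05 without *Fezf2 shRNA* 4. *Grm8* turned to −0.15 under the offset and under block and offset. Offset fits without 1 library were added after seeing the data. In these *Grm8* was −0.17, −0.11, −0.15 and −0.16 without controls 1 to 4 and −0.17, −0.09, −0.17 and −0.16 without *Fezf2 shRNA* 1 to 4. *Grm2* was 0.12, 0.01 and 0.07 without controls 1 to 3 and 0.01, 0.08 and 0.13 without *Fezf2 shRNA* 2 to 4, *Grm4* was −0.01 without control 3 and −0.03 without *Fezf2 shRNA* 3, and *Grm5* was 0.00 without *Fezf2 shRNA* 1. The cause was not tested.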
